A study of Mus musculus with 20 samples.

Results

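The lipid droplet proteins were followed in liver RNA by 10 genes out of the 38924 in the deposited table, taken by their names: the perilipins Plin2, Plin3, Plin4 and Plin5, the CIDE genes Cidea, Cideb and Cidec, the lipase inhibitor G0s2, and the patatin-like phospholipase genes Pnpla2 and Pnpla3. Livers came from 20 male mice, 5 per group, that were bought at 5 weeks of age, acclimated for 1 week and fed for 12 weeks. Wild type mice (WT, strain background C57/BL6) received a control diet (NDWT) or CDAHFD (HFWT). CDAHFD is a high fat diet without choline and with limited methionine, whose protein is replaced by defined L-amino acids. Mice with a constitutive knockout of TSP-1, the product of Thbs1, received the control diet (NDKO) or CDAHFD (HFKO). Control mice were C57BL/6J from the same supplier, and nothing in the sources used here says that they were littermates of the knockouts. Poly(A) RNA of 1 liver lobe per mouse was sequenced, and the authors' values are FPKM, fragments scaled to the length of the gene and the depth of the library, so levels of different genes below are per length. The value of a gene is a share of its library.

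A lipid droplet is a core of triglyceride and cholesteryl ester under a single layer of phospholipid, and its surface proteins decide how readily the core is stored or broken down. Perilipins coat the surface and limit access of lipases, CIDE proteins join droplets to each other and pass lipid from one to the next, and the lipase ATGL, the product of Pnpla2, takes the first fatty acid off triglyceride. G0s2 inhibits ATGL and Abhd5 (CGI-58) activates it. In hepatocytes PLIN2 is the main coat protein of fatty liver, PLIN5 ties droplets to mitochondria, and several of these genes are known targets of PPARα and PPARγ. CDAHFD lacks choline and limits methionine, both of which liver cells need to export triglyceride in VLDL. It is used to produce fatty, inflamed and fibrotic livers.

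The 250 bases before the transcription start of 4 members are shown because these are the genes that rose or fell with the diet below: 3 fell and 1 rose. The sequences are those of RefSeq on GRCm38.p6, read 5′ to 3′ on the gene's own strand, which is the minus strand for all 4, at chr1:193273189-193273438 (G0s2), chr4:86670061-86670309 (Plin2), chr17:56117597-56117798 (Plin5) and chr17:56290512-56290761 (Plin3). Bases that lie inside the gene in the deposited table were left out, so Plin2 has 249 and Plin5 has 202 bases. Capitals mark the nuclear receptor core site AGGTCA or its reverse complement TGACCT.

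G0s2: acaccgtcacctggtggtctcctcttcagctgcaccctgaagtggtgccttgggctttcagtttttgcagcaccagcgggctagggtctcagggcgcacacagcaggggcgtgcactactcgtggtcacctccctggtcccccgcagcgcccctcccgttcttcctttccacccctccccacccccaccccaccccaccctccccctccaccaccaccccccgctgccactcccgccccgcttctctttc
Plin2: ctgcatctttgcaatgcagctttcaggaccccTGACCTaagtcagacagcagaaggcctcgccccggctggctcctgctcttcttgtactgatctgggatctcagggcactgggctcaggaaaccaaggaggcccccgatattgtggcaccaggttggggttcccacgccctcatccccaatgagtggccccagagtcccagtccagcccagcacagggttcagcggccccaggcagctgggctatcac
Plin5: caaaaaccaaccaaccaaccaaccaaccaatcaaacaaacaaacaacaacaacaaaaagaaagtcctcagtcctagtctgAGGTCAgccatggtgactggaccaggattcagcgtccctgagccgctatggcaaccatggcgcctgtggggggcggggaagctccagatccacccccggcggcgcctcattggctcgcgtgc
Plin3: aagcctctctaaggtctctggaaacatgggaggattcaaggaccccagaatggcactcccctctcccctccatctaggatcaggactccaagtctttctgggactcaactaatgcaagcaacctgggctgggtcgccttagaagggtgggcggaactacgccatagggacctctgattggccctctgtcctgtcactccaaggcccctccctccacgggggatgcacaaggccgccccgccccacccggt

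The RefSeq table held 11 promoters of 9 members; the promoter of Cidea was not used here. On both strands the full DR1 element AGGNCANAGGNCA, the form that PPAR and RXR pairs bind, occurred in 0 of these 11 and in 111 of all 32851 promoters of the same 250 bases (0.338%). The E-box CACGTG occurred in 0 of 11 and in 1978 of all promoters (6.02%). The single core site AGGTCA, a search added after the DR1 search gave no match, occurred in 2 of 11 and in 4607 of all promoters (14.02%). These 2 matches are in Plin2 (minus strand of the gene, 218 to 213 bases before the start) and Plin5 (plus strand of the gene, 170 to 165 bases before it). A match names letters in this window, and every AGGTCA also fits 1 arm of the DR1 pattern.

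Facts of the whole series that touch these genes are few. Thbs1, the targeted gene, ran from 0.058 to 0.326 FPKM in NDWT and from 0.986 to 1.90 FPKM in NDKO, with all 5 libraries labelled TSP-1 null on the higher side (log2 fold change, log2FC, 2.28, limma FDR 1.02e-05). It ran from 3.46 to 6.10 FPKM in HFWT and from 3.05 to 4.398 FPKM in HFKO (log2FC −0.39, FDR 0.408), so it does not bear the labels out and genotypes below are those the libraries were labelled with. Libraries held between 15641545 and 23276322 fragments on genes, at which 3 fragments on a gene of 1 kb amount to 0.129 to 0.192 FPKM. HFWT library 5 had 5.55% of its fragments on the genes Gm23935 and Gm26924, against at most 1.98% elsewhere. Hepatocyte markers (8 of 8 tested) summed to medians of 41523, 46517, 36865 and 42013 FPKM in NDWT, NDKO, HFWT and HFKO, which fits the tissue label. Most of this sum was Alb, with means of 25052, 27881, 22996.5 and 29725 FPKM. With CDAHFD 2 of the 8 were called lower in WT (4.62% of all genes) and 3 in TSP-1 null (4.00%). None was called higher (44.1% and 41.9%). Serpina1c was lower in both, with a log2FC of −1.70 and −1.44. Summed markers of other cells were higher on CDAHFD. Macrophage markers went from medians of 233 and 221 FPKM in NDWT and NDKO to 1465 and 1108 FPKM in HFWT and HFKO. Stellate cell markers went from 57.9 and 65.6 to 353 and 269 FPKM, and cholangiocyte markers from 15.9 and 14.4 to 473 and 278 FPKM. Most of the stellate sum on CDAHFD was Dcn, with means of 204 and 151 FPKM in HFWT and HFKO. Most of the cholangiocyte sum was Spp1, with means of 379 and 252 FPKM. As deposited, 8 of 8 stellate and 5 of 5 tested cholangiocyte markers were called higher in each genotype (44.1% and 41.9% of all genes). The largest macrophage marker on CDAHFD was Lyz2, with means of 870 and 621 FPKM in HFWT and HFKO. Clec4f of the same list went the other way. Its means were 67.5 and 29.7 FPKM in NDWT and HFWT, and 69.3 and 40.7 FPKM in NDKO and HFKO. The other macrophage markers had higher means on CDAHFD. The part of these cell types in the results below was not tested. In whole liver fewer cells of a type and less RNA per cell cannot be told apart.

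The level of the 10 genes spanned more than 3 orders of size within each group. Plin2 was the highest member in all 4 groups and ranked 114, 127, 175 and 143 by mean FPKM among the 14524 genes tested, in NDWT, NDKO, HFWT and HFKO. On the control diet G0s2 came next, with a range that overlapped that of Plin2, and after it came Plin5 and Pnpla2, whose ranges also overlapped. On CDAHFD the range of G0s2 lay below that of Plin2 and overlapped that of Pnpla2, and the rank of G0s2 went from 139 and 175 in NDWT and NDKO to 881 and 925 in HFWT and HFKO. Cideb, Cidec and Plin3 followed on the control diet, with overlapping ranges from one to the next. Plin4 came next in every group, with a range below those of Cideb, Cidec and Plin3 except in NDKO, where it reached 7.86 FPKM and Cidec went down to 5.30 FPKM. Cidea and Pnpla3, whose ranges overlapped, were the lowest.

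**Figure D1:**
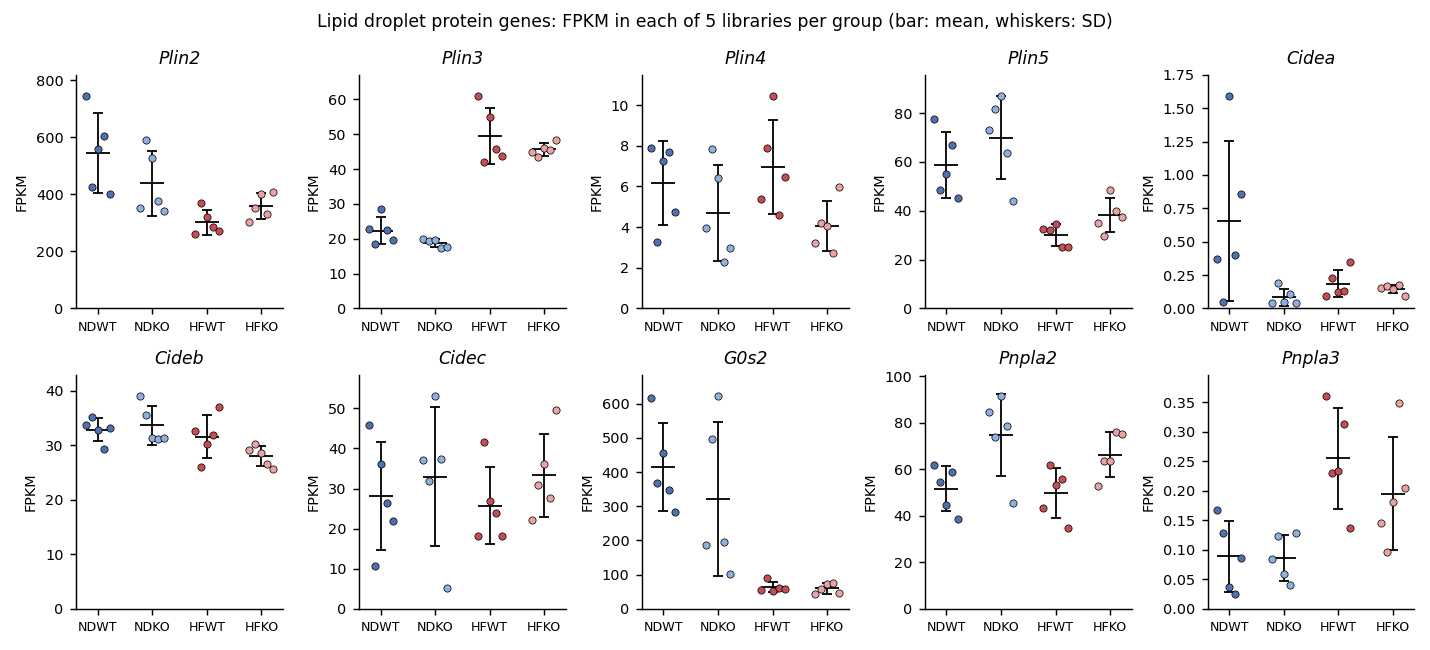
FPKM (linear axes starting at 0) of the 10 lipid droplet protein genes in each of 5 libraries per group, with the mean as a bar and the SD as whiskers. Plin3 is higher in both CDAHFD groups than in any control diet library, and G0s2 is lower in both.

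A gene was tested with limma if it had an FPKM above 0.5 in at least 5 libraries, which 8 of the 10 members did, and was called at a Benjamini-Hochberg FDR under 0.05, taken over all 14524 tested genes, and an absolute log2FC above 0.58 on the log2(FPKM + 0.1) scale. CDAHFD against control diet called 4 of 8 members in WT, where 48.8% of all tested genes were called. Of the members 1 was higher, against 44.1% of all genes, and 3 were lower, against 4.62%. In the libraries labelled TSP-1 null 3 of 8 members were called (45.9% of all genes), 1 higher (41.9%) and 2 lower (4.00%). The groups did not overlap for 4 of 8 members in WT (56.2% of all genes) and for 3 of 8 in TSP-1 null (57.8%). The median log2FC of the 8 members was −0.06 in WT and −0.21 in TSP-1 null, beside 0.53 and 0.50 over all tested genes. Each group enters a diet comparison and a genotype comparison, so these comparisons share libraries.

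Because the middle of all genes lay at 0.53 or 0.50 in these shares, the direction of a small change depends on the scaling. With median of ratios scaling, which brings the middle gene to −0.01 in both genotypes, the share of calls that were higher went from 90.5% to 59.5% in WT and from 91.3% to 62.0% in TSP-1 null, and quantile normalization gave 49.5% and 52.6%. The members called under median of ratios scaling were 1 higher and 5 lower in each genotype, and under quantile normalization 1 higher and 3 lower, with Plin4 (−0.75, FDR 0.0422) as the added one in TSP-1 null. Lower calls among all 14524 genes were more common under both scalings. For WT mice they numbered 671 as deposited, 2242 with median of ratios scaling and 2562 with quantile normalization. For TSP-1 null mice they numbered 581, 1980 and 2186. Higher calls went from 6412 to 3299 and 2514 for WT mice, and from 6088 to 3225 and 2421 for TSP-1 null mice. Plin3 as the higher member and Plin5 and G0s2 as lower ones were called under all 3 scalings in both genotypes. Plin2 was called lower in WT under all 3.

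**Figure D2:**
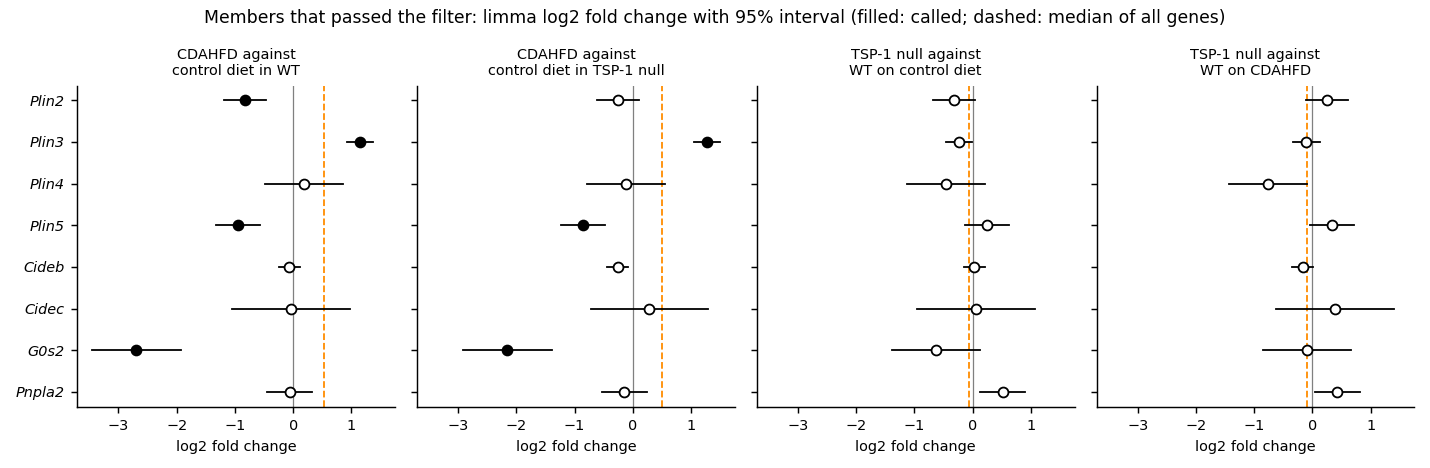
Log2FC from limma on the log2(FPKM + 0.1) scale with 95% intervals for the 8 members that passed the filter, in 4 comparisons. Filled points were called, and the dashed line is the median of all 14524 tested genes, at 0.53, 0.50, −0.07 and −0.10 from left to right. Filled points stand in the 2 diet panels, and the genotype panels have none.

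Among the perilipins Plin2 fell in WT and Plin5 fell in both genotypes, while Plin3 rose in both. Plin2 (ENSMUSG00000028494.6, GRCm38 chromosome 4, 86648386 to 86670060, minus strand) encodes the coat protein that is stable only while bound to a droplet. Its FPKM was 745, 424, 558, 603 and 399.9 in NDWT and 261, 369, 320.2, 287 and 273 in HFWT. All 5 HFWT libraries lay below all 5 NDWT libraries. The means were 546 ± 141 and 302 ± 43.3 (SD, n = 5), and the log2FC was −0.83 (SE 0.17, 95% interval −1.19 to −0.47, FDR 2.69e-04). In TSP-1 null Plin2 was 353, 592, 527, 378 and 341 FPKM on the control diet and 302, 351, 401, 331 and 407 FPKM on CDAHFD. These groups overlapped, and the log2FC was −0.26 (SE 0.17, interval −0.62 to 0.10, FDR 0.182). With median of ratios scaling this value was −0.80 and passed (FDR 5.06e-04), while quantile normalization gave −0.10 (FDR 0.595). The difference between the 2 diet effects, tested as an interaction, was 0.57 (interval 0.05 to 1.077, FDR 0.274), so the genotypes were not shown to differ.

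Plin3 (ENSMUSG00000024197.9, chromosome 17, 56278962 to 56290511, minus strand), which encodes the widely expressed TIP47 that moves from the cytosol onto young droplets, rose in both genotypes. Its FPKM was 22.8, 18.5, 28.7, 22.4 and 19.6 in NDWT and 61.1, 42.1, 54.9, 45.9 and 43.65 in HFWT. It was 20.0, 19.3, 19.6, 17.3 and 17.7 in NDKO and 44.8, 43.4, 46.1, 45.6 and 48.3 in HFKO. The highest control diet library of each genotype lay below the lowest on CDAHFD. The log2FC was 1.14 in WT (SE 0.11, interval 0.92 to 1.37, FDR 1.53e-08) and 1.28 in TSP-1 null (interval 1.05 to 1.504, FDR 4.06e-09). Relative to the middle of all genes these rises were 0.61 and 0.78, and median of ratios scaling gave 0.58 (FDR 3.57e-05) and 0.75 (FDR 2.17e-06), so in WT the rise lay just above the fold change threshold. The interaction was 0.13 (interval −0.18 to 0.45, FDR 0.736).

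Plin5 (ENSMUSG00000011305.5, chromosome 17, 56111601 to 56117596, minus strand) encodes the perilipin of tissues that burn fat. Its FPKM was 77.6, 48.5, 55.0, 66.8 and 45.1 in NDWT and 32.6, 32.2, 34.6, 25.1 and 25.2 in HFWT, without overlap. In NDKO it was 73.2, 81.7, 87.1, 63.6 and 44.0 and in HFKO 35.1, 29.6, 48.4, 40.1 and 37.5, and here HFKO library 3 lay above NDKO library 5. The log2FC was −0.95 in WT (SE 0.18, FDR 9.60e-05) and −0.85 in TSP-1 null (SE 0.18, FDR 3.04e-04). Relative to all genes the values were −1.48 and −1.35. The interaction was 0.10 (interval −0.43 to 0.63, FDR 0.905).

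Plin4 (ENSMUSG00000002831.7, chromosome 17, 56100591 to 56109802, minus strand), a perilipin best known from adipocytes, was not called. In WT mice it stood at 7.91, 3.26, 7.25, 7.70 and 4.76 FPKM under the control diet and at 5.36, 7.91, 10.5, 4.59 and 6.48 FPKM under CDAHFD. TSP-1 null mice had 3.93, 7.86, 6.42, 2.28 and 2.96 FPKM, then 3.235, 4.20, 4.04, 2.73 and 5.95 FPKM. All 4 groups overlapped. The diet log2FC was 0.19 in WT (interval −0.49 to 0.86, FDR 0.613) and −0.12 in TSP-1 null (interval −0.79 to 0.55, FDR 0.755), and the sign in WT turned with either scaling, to −0.37 and −0.41. Plin4 overlaps Hdgfrp2 on the other strand by 6 bases. Plin1, the perilipin of adipocytes, is no member: it had 0 to 2 fragments in each of the 20 libraries, and among adipocyte markers Lep was listed at 0 in every library. The summed adipocyte markers had medians of 17.3, 15.8, 37.0 and 34.0 FPKM in NDWT, NDKO, HFWT and HFKO, of which Fabp4, also expressed in macrophages, made up 29.7 FPKM on average in HFWT.

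Shares within the family do not depend on a library's scale factor. The 5 perilipins summed to 633 ± 158, 532 ± 130.1, 388 ± 44.7 and 446 ± 51.0 FPKM (SD, n = 5) in NDWT, NDKO, HFWT and HFKO. Plin2 made up 86.1% ± 0.769, 82.2% ± 2.39, 77.6% ± 3.46 and 80.2% ± 1.59 of this sum, and in WT the lowest NDWT library (85.2%) lay above the highest HFWT library (81.8%) and also above the highest NDKO library (84.5%). Plin3 went from 3.64% ± 0.714 and 3.67% ± 0.757 on the control diet to 12.9% ± 2.71 and 10.3% ± 0.960 on CDAHFD, and no library on CDAHFD (lowest 9.23%) fell within the control diet range (highest 4.44%). The share of Plin5 was 9.31% ± 0.534 in NDWT and 13.2% ± 2.11 in NDKO, where the lowest NDKO library (10.8%) lay above the highest NDWT library (9.81%). On CDAHFD the shares of Plin5 were 7.72% ± 0.896 and 8.56% ± 1.27, and these overlapped, while every HFKO library (highest 9.70%) lay below every NDKO library. The share of Plin4 was 0.964% ± 0.187, 0.845% ± 0.244, 1.77% ± 0.464 and 0.895% ± 0.203 in the order above, and HFWT (lowest 1.27%) lay above both NDWT (highest 1.12%) and HFKO (highest 1.19%). These shares are descriptions and were not tested.

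**Figure D3:**
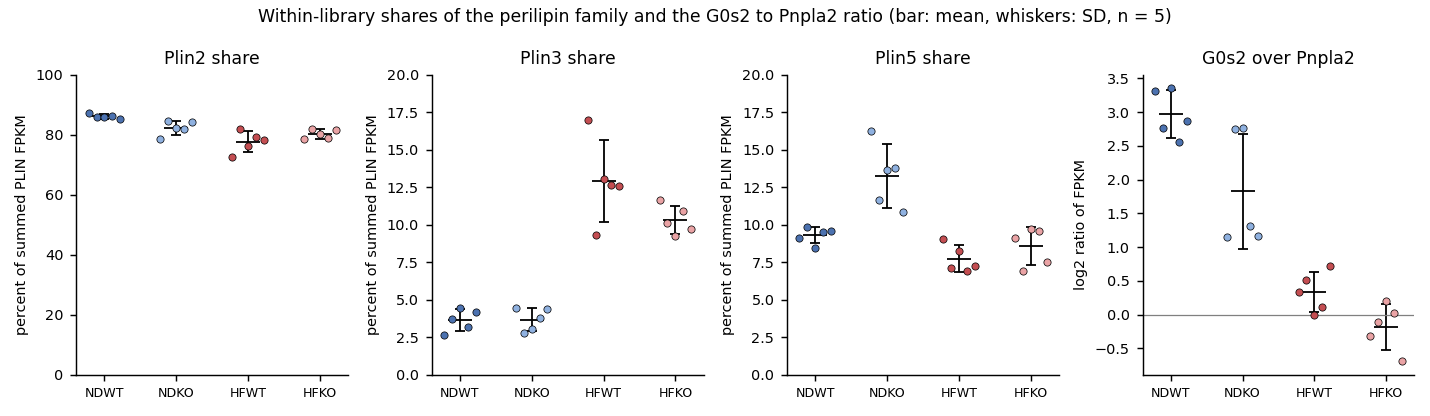
Share of Plin2, Plin3 and Plin5 in the summed FPKM of the 5 perilipins (percent) and the log2 ratio of G0s2 to Pnpla2 FPKM, with 1 point per library, the mean as a bar and the SD as whiskers. The share of Plin3 is above 9% in all 10 CDAHFD libraries, and the log2 ratio falls from means of 2.97 and 1.83 on the control diet to 0.34 and −0.18.

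Of the CIDE genes Cideb and Cidec were tested and were not called in any comparison as deposited, and Cidea was below the filter. Cideb (ENSMUSG00000022219.9, chromosome 14, 55754045 to 55758458, minus strand), the CIDE gene of normal hepatocytes that also serves VLDL loading, was varied little from mouse to mouse. WT mice had 33.8, 35.2, 32.9, 29.4 and 33.2 FPKM under the control diet and 32.7, 26.1, 30.2, 31.8 and 37.0 FPKM under CDAHFD. TSP-1 null mice had 39.0, 35.6, 31.3, 31.1 and 31.3 FPKM, then 29.1, 30.2, 28.6, 26.5 and 25.7 FPKM. All 5 HFKO libraries lay below all 5 NDKO libraries, but the log2FC of −0.26 (interval −0.44 to −0.08, FDR 0.0105) did not reach the fold change threshold. In WT the groups overlapped (log2FC −0.07, FDR 0.501). Under median of ratios scaling Cideb passed as lower in both genotypes, with a log2FC of −0.63 (FDR 1.15e-05) and −0.79 (FDR 6.77e-07), and under quantile normalization in neither (−0.28 and −0.52). Cideb shares 1456 bases with Nop9 on the other strand, and whether the counting used strand is not given in the sources used here, so part of its reads could come from that gene.

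Cidec (ENSMUSG00000030278.5, chromosome 6, 113424634 to 113435760, minus strand), also called FSP27, makes the large droplets of white fat and of fatty liver. It spread widely within groups. NDWT mice had 45.9, 10.6, 36.2, 26.4 and 21.8 FPKM, and HFWT mice had 18.2, 41.6, 26.8, 23.8 and 18.2 FPKM. NDKO mice had 37.1, 31.9, 53.05, 37.4 and 5.30 FPKM, and HFKO mice had 22.2, 30.9, 36.0, 27.7 and 49.5 FPKM. Every pair of groups overlapped. The diet log2FC was −0.04 in WT (SE 0.48, interval −1.05 to 0.97, FDR 0.941) and 0.28 in TSP-1 null (interval −0.73 to 1.30, FDR 0.609). Without NDKO library 5, the lowest of all, the TSP-1 null value was −0.29. Of the summed CIDE FPKM, Cideb held 55.4% ± 13.6, 54.3% ± 18.4, 55.8% ± 11.2 and 46.6% ± 8.27 and Cidec 43.5% ± 13.2, 45.5% ± 18.4, 43.9% ± 11.2 and 53.2% ± 8.34 for NDWT, NDKO, HFWT and HFKO, with overlap between all groups.

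Cidea (ENSMUSG00000024526.8, chromosome 18, 67343564 to 67367794, plus strand), a gene of brown fat that appears in fatty livers of mice, passed an FPKM of 0.5 in 2 libraries and was not among the tested genes. NDWT libraries held 10, 1, 33, 8 and 20 fragments of it, NDKO libraries 1, 5, 1, 2 and 1. On CDAHFD the counts were 2, 5, 3, 3 and 7 for WT and 4, 3, 3, 4 and 2 for TSP-1 null. NDWT held 72 fragments in all and NDKO 10, a ratio of NDKO to NDWT of 0.134 per fragment sequenced (exact 95% interval 0.0617 to 0.261, which covers counting error only). NDWT library 2 was within the range of NDKO, so the groups overlapped. In a fit of all 25536 genes seen in at least 1 library, the control diet log2FC of Cidea for the TSP-1 null label against WT was −1.67 (FDR 0.0322), where 2.50% of genes were called. This call was lost without any 1 of NDWT libraries 3 and 5 and NDKO libraries 1, 3, 4 and 5, and in a fit of these 2 groups alone (FDR 0.193). With a pseudocount of 1 the value was −0.54 (FDR 0.0539), and over all alternatives the FDR ran from 0.00204 to 0.193. With CDAHFD in WT the log2FC was −1.05 (FDR 0.0583), and under median of ratios scaling (−1.42, FDR 0.0187) and quantile normalization (−1.95, FDR 0.00177) Cidea was called lower, as it was without NDWT library 2 (−1.53) or HFWT library 5 (−1.23). Among the adipocyte markers Cfd, the gene of adipsin, was lower in the same comparisons: its means were 1.25 ± 0.794 FPKM in NDWT, 0.296 ± 0.132 in NDKO and 0.234 ± 0.199 in HFWT. Its log2FC was −1.57 between genotypes on the control diet (limma FDR 0.0414) and −1.99 with CDAHFD in WT (FDR 0.00130), called under all 3 scalings. Of 4 adipocyte markers tested, Cfd was the only one called between genotypes on the control diet (4.77% of all genes). With CDAHFD in WT Cfd was lower (4.62%) and Fabp4 higher (1.85, 44.1%), and Lipe and Adrb3 were not called as deposited. Adipoq, below the filter, had 4 fragments in all in NDWT, 4 in NDKO and 0 in HFWT. The part of Cfd in the Cidea values was not tested. Cidea shares 540 bases with B430212C06Rik on the other strand.

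The lipase and its partners changed unevenly with the diet. G0s2 (ENSMUSG00000009633.2, chromosome 1, 193272161 to 193273188, minus strand), the inhibitor, fell most among the members. Its FPKM was 618, 369, 457, 347 and 284 in NDWT and 54.7, 88.9, 53.1, 60.5 and 57.2 in HFWT. It was 188, 496, 622, 195 and 102 in NDKO and 42.2, 58.8, 72.9, 76.8 and 46.7 in HFKO. No CDAHFD library reached a control diet library of the same genotype, and in NDKO 2 libraries stood far above the other 3. The means were 415 ± 129, 62.9 ± 14.8, 321 ± 225 and 59.5 ± 15.3 FPKM (SD, n = 5) in NDWT, HFWT, NDKO and HFKO. The log2FC was −2.70 in WT (SE 0.36, interval −3.46 to −1.93, FDR 1.90e-06) and −2.16 in TSP-1 null (SE 0.36, interval −2.92 to −1.40, FDR 2.97e-05). Relative to all genes it was −3.23 and −2.66. The interaction was 0.54 (interval −0.54 to 1.62, FDR 0.679).

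Pnpla2 (ENSMUSG00000025509.9, chromosome 7, 141455198 to 141460743, plus strand), the gene of the lipase ATGL itself, did not pass with the diet. Its FPKM was 61.9, 54.4, 44.6, 58.9 and 38.8 in NDWT and 43.4, 62.0, 53.1, 55.9 and 34.7 in HFWT. It was 84.8, 73.8, 91.5, 78.7 and 45.4 in NDKO and 52.7, 63.5, 63.5, 75.9 and 75.4 in HFKO. Both diet pairs overlapped, with a log2FC of −0.06 in WT (interval −0.45 to 0.33, FDR 0.777) and −0.15 in TSP-1 null (interval −0.54 to 0.24, FDR 0.478). Under median of ratios scaling Pnpla2 passed as lower in both (−0.62, FDR 0.00588, and −0.69, FDR 0.00297), and under quantile normalization in neither. On each diet 4 of 5 libraries labelled TSP-1 null lay above all 5 labelled WT. The genotype log2FC was 0.51 on the control diet (interval 0.13 to 0.90, FDR 0.0729) and 0.43 on CDAHFD (interval 0.04 to 0.81, FDR 0.244), and neither passed. The first passed without NDKO library 5 (0.68, FDR 0.00898) and under median of ratios scaling (0.59, FDR 0.0398), and its FDR ran from 0.00898 to 0.185 over all alternatives.

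The ratio of G0s2 to Pnpla2 within a library was 8.05 ± 1.96, 4.09 ± 2.44, 1.28 ± 0.263 and 0.901 ± 0.202 (SD, n = 5) in NDWT, NDKO, HFWT and HFKO. Its lowest control diet value was 2.21 and its highest CDAHFD value 1.65, so the diets did not overlap. Abhd5, the coactivator of ATGL, was at 6.89 ± 2.34, 4.76 ± 0.258, 7.28 ± 0.5997 and 6.71 ± 0.539 FPKM. In TSP-1 null it was higher on CDAHFD in every library (log2FC 0.48, FDR 0.00478), below the fold change threshold, and in WT the log2FC was 0.13 (FDR 0.417). These signs turned with median of ratios scaling, to −0.04 in TSP-1 null and −0.42 in WT. The ratio of Abhd5 to Pnpla2 was 0.136 ± 0.0441, 0.0676 ± 0.0218, 0.153 ± 0.0412 and 0.103 ± 0.0200.

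Pnpla3 (ENSMUSG00000041653.4, chromosome 15, 84167816 to 84189512, plus strand), a droplet lipase related to ATGL whose product restrains ATGL by binding its coactivator, had few fragments in every library. It passed an FPKM of 0.5 in 0 libraries and was not among the tested genes. WT libraries held 18, 10, 3, 2 and 8 fragments under the control diet and 30, 20, 22, 29 and 11 under CDAHFD. TSP-1 null libraries held 8, 13, 5, 3 and 12, then 15, 7, 15, 32 and 18. Counted over NDWT, NDKO, HFWT and HFKO the sums were 41, 41, 112 and 87 fragments, and the groups overlapped in both genotypes. In the fit of all 25536 genes Pnpla3 was called higher on CDAHFD in WT (log2FC 0.94, FDR 0.00430, where 35.5% of genes were called) and in TSP-1 null (log2FC 0.63, FDR 0.0485, where 32.2% were called). Neither call held under the other scalings, and the second was lost without any 1 of NDKO libraries 1, 3 and 4 and HFKO libraries 3, 4 and 5: the values were 0.61 (FDR 0.0605) and 0.34 (FDR 0.316) with median of ratios scaling and 0.02 (FDR 1.00) and −0.14 (FDR 0.741) with quantile normalization. A fold change at this depth understates or overstates with the pseudocount, and with 1 in place of 0.1 it was 0.20 and 0.13. Over all alternatives the FDR ran from 0.00180 to 1.00 in WT and from 0.0204 to 0.741 in TSP-1 null.

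Where the 2 genotype labels were compared, 0 of 8 members were called on the control diet, where 4.77% of all tested genes were called by limma, and 0 of 8 on CDAHFD, where 0.496% were called. At an unadjusted p under 0.05 there were 2 of 8 on the control diet (Plin3 and Pnpla2), beside 27.3% of all genes, and 2 of 8 on CDAHFD (Plin4 and Pnpla2), beside 17.2%. The groups did not overlap for 0 of 8 members on either diet (9.03% and 4.98% of all genes). For the 4 members called with the diet, the genotype intervals on both diets did not reach the point value of that member's own called diet change. These members were picked for that change, so this describes them and is no test. The diet value of Plin2 in TSP-1 null (−0.26), which was not called, lay within its genotype interval on the control diet. For G0s2 the control diet value was −0.63 (interval −1.39 to 0.13, FDR 0.280) and the CDAHFD value −0.09 (interval −0.85 to 0.67, FDR 0.921). For Plin2 the values were −0.32 (interval −0.68 to 0.05, FDR 0.250) and 0.25 (interval −0.11 to 0.61, FDR 0.471). For Plin5 they were 0.24 (interval −0.13 to 0.62, FDR 0.411) and 0.34 (interval −0.03 to 0.72, FDR 0.336), and for Plin4 −0.46 (FDR 0.382) and −0.76 (FDR 0.230). Plin3 gave −0.24 (interval −0.46 to −0.01, FDR 0.160) and −0.10 (interval −0.33 to 0.12, FDR 0.648), Cideb 0.03 (FDR 0.862) and −0.16 (FDR 0.329), and Cidec 0.06 (FDR 0.955) and 0.39 (FDR 0.705). The diet by genotype interaction was called for 0 of 8 members (0.647% of all genes), and at an unadjusted p under 0.05 for 1 of 8 (Plin2), beside 15.1% of all genes. The share of calls that were higher went from 36.5% to 51.4% on the control diet and from 33.3% to 58.5% on CDAHFD under median of ratios scaling, and quantile normalization gave 51.0% and 62.5%.

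Of 10 transcription factors and cofactors known to act on droplet genes, 3 were higher and 3 lower with CDAHFD in WT (44.1% and 4.62% of all genes), and 2 were higher and 1 lower in TSP-1 null (41.9% and 4.00%). Under median of ratios scaling these counts were 2 and 4 in WT (3299 and 2242 of all 14524 genes). For TSP-1 null they were 2 and 5 (3225 and 1980 of all genes). The median log2FC of the 10 as deposited was 0.06 and −0.06, beside 0.53 and 0.50 over all genes. Ppara, the fatty acid sensor of hepatocytes, fell in both genotypes. Its means went from 76.6 ± 12.0 to 32.9 ± 6.05 FPKM in WT (log2FC −1.22, FDR 1.44e-07), and TSP-1 null mice had 57.4 ± 5.63 and 36.8 ± 6.08 FPKM (log2FC −0.65, FDR 2.75e-04). Pparg, which drives fat storage, rose in both (log2FC 1.52, FDR 4.54e-07, and 2.20, FDR 3.87e-09), and so did Srebf1, which drives lipid synthesis (1.498, FDR 9.09e-07, and 1.24, FDR 1.01e-05). The groups of Ppara, Pparg and Srebf1 did not overlap, and all 3 were called under every scaling. Creb3l3, a fasting factor of hepatocytes, fell in WT (−0.83, FDR 1.61e-08), and in TSP-1 null its log2FC of −0.55 (FDR 3.92e-06) did not reach the fold change threshold as deposited, while median of ratios scaling called it lower (−1.08). Mlxipl (ChREBP) was −0.58 in WT, just past the threshold (FDR 6.33e-04), and −0.42 in TSP-1 null, where both other scalings called it lower (−0.96 and −0.66). The coactivator gene Ppargc1a was called higher in WT as deposited (0.81, FDR 0.00597) but not under the other scalings, where it was 0.28 and −0.14, and in TSP-1 null it was −0.31 (FDR 0.257), with −0.83 and −1.05 and a call as lower under the other scalings. For Nr1h3, Rxra, Hif1a and Esrra the log2FC lay between −0.20 and 0.28 in both genotypes and none was called as deposited. Rxra in WT (−0.76) and Esrra in TSP-1 null (−0.65) were called lower under median of ratios scaling. Between genotypes on the control diet 4.77% of all genes were called. There Ppargc1a was higher (1.28, FDR 0.00219) and Pparg lower (−0.75, FDR 0.0114) in the libraries labelled TSP-1 null. On CDAHFD 0 of 10 were called (0.496% of all genes).

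Of 32 other droplet genes (enzymes, assembly factors and lipases) 29 were tested. In WT 6 were higher and 9 lower with CDAHFD (44.1% and 4.62% of all genes), and in TSP-1 null 6 and 7 (41.9% and 4.00%). Median of ratios scaling gave 4 higher and 12 lower in WT (3299 and 2242 of all 14524 genes). For TSP-1 null it gave 3 and 11 (3225 and 1980 of all genes). The median log2FC of the 29 as deposited was 0.09 and 0.12. Fitm1 and Fitm2, which help droplets leave the endoplasmic reticulum, fell in both genotypes: Fitm2 went from 45.7 ± 5.92 to 17.99 ± 3.37 FPKM in WT (log2FC −1.35, FDR 3.08e-08) and had a log2FC of −0.77 in TSP-1 null (FDR 3.74e-05), and Fitm1 had −1.44 (FDR 8.50e-06) and −1.03 (FDR 3.29e-04). Mgll, the lipase of the last step, fell from 134 ± 20.8 to 41.3 ± 6.45 FPKM in WT (−1.69, FDR 6.18e-09) and by 0.90 on the log2 scale in TSP-1 null (FDR 2.35e-05). The carboxylesterase genes Ces1f (−2.35 and −1.48) and Ces1d (−1.86 and −1.47), whose products act on triglyceride in hepatocytes, fell as well. Ldah, named 1110057K04Rik in the deposited table, was called lower in WT (−0.71) and also under the other scalings (−1.27 and −1.11). In TSP-1 null Ldah was −0.33 and not called as deposited, while both other scalings called it lower (−0.86 and −0.76). Lpcat1 (1.54 and 1.84) and Lpcat2 (1.78 and 1.97), which remodel the phosphatidylcholine of the surface, rose in both, as did Tmem159, the partner of seipin (1.87 and 1.58), and the acyl-CoA synthetase gene Acsl4 (1.23 and 0.94). The Acsl4 rise in TSP-1 null was not called under the other scalings, with 0.41 and 0.53. Lipe, the hormone-sensitive lipase gene (−0.20 and 0.03), Hsd17b13, a droplet enzyme of hepatocytes (−0.13 and 0.26), and Bscl2, the gene of seipin (0.17 and 0.19), were not called as deposited. Under median of ratios scaling Lipe (−0.75) and Hsd17b13 (−0.69) were called lower in WT, and Bscl2 was −0.39 and −0.34. Quantile normalization called Lipe lower in WT (−0.94) and in TSP-1 null (−0.64). Hilpda, another ATGL inhibitor, was 0.50 (FDR 0.0719) and 0.60 (FDR 0.0317), with the second called as deposited and not under either scaling. On the control diet 2 of the 29 were lower in the libraries labelled TSP-1 null, beside 440 of all 14524 genes. These 2 were Ces1f (−0.92, FDR 0.00366) and Fitm1 (−1.03, FDR 0.00448). On CDAHFD 0 of the 29 were called (0.496% of all genes).

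**Figure D4:**
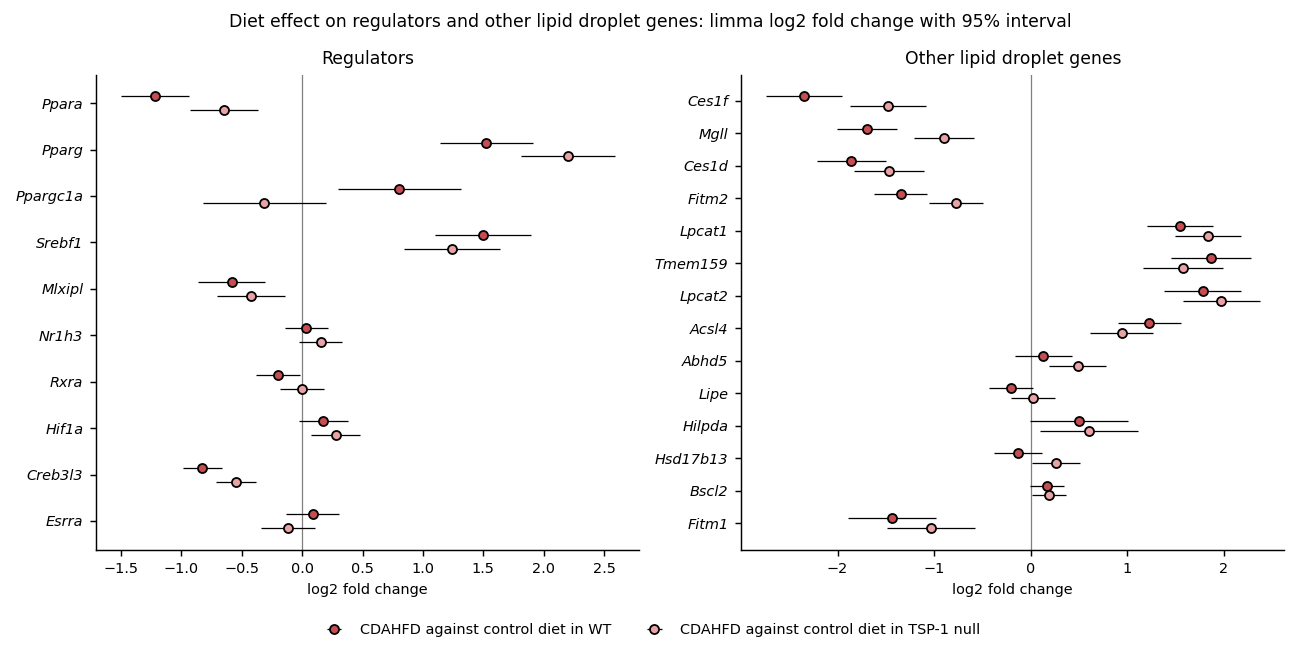
Log2FC for CDAHFD against control diet with 95% intervals from limma, in WT (dark) and TSP-1 null (light), for 10 regulators and 14 other lipid droplet genes. Pparg and Srebf1 lie to the right of 0 and Ppara and Creb3l3 to the left in both genotypes.

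Mice that stood above their group in one member often did so in others. After group means were taken off log2(FPKM + 0.1), Plin2 went with Plin4 (Pearson's r 0.81 over 20 libraries), G0s2 (0.76) and Plin5 (0.73), and Cidec with Plin5 (0.71) and Pnpla2 (0.71). Cideb had its r with all other members between −0.34 and 0.05. For Plin3 the r ran from 0.05 with Cideb to 0.44 with Plin5, and was 0.06 with Pnpla2 and 0.14 with G0s2. The pattern was not the same within each diet: over the 10 CDAHFD libraries Plin2 and Cidec had an r of 0.96 and over the 10 control diet libraries 0.60, and Cideb and Pnpla2 had −0.87 and 0.15. The difference was not tested, and values of 1 library share its depth and RNA, so these figures describe the libraries. Among all tested genes outside the list the closest to Plin2 by this measure were Prune (0.92), Wdr73 (0.90) and Slc16a1 (0.90). The closest to G0s2 were Serinc2 (0.87), Rab34 (0.87) and Mgll (0.86), and to Plin5 Dusp3 (0.85), Creb3 (0.84) and Fam131c (0.83). For the other members the first was Wdr5b for Plin3 (0.79), Tgoln1 for Plin4 (0.84), Sephs2 for Cideb (0.80), Cgref1 for Cidec (0.87) and Tbrg4 for Pnpla2 (0.85). Each of these genes was picked for its high r among all tested genes outside the list. The r that such a pick would reach among unrelated genes was not worked out, so these values do not show shared regulation.

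**Figure D5:**
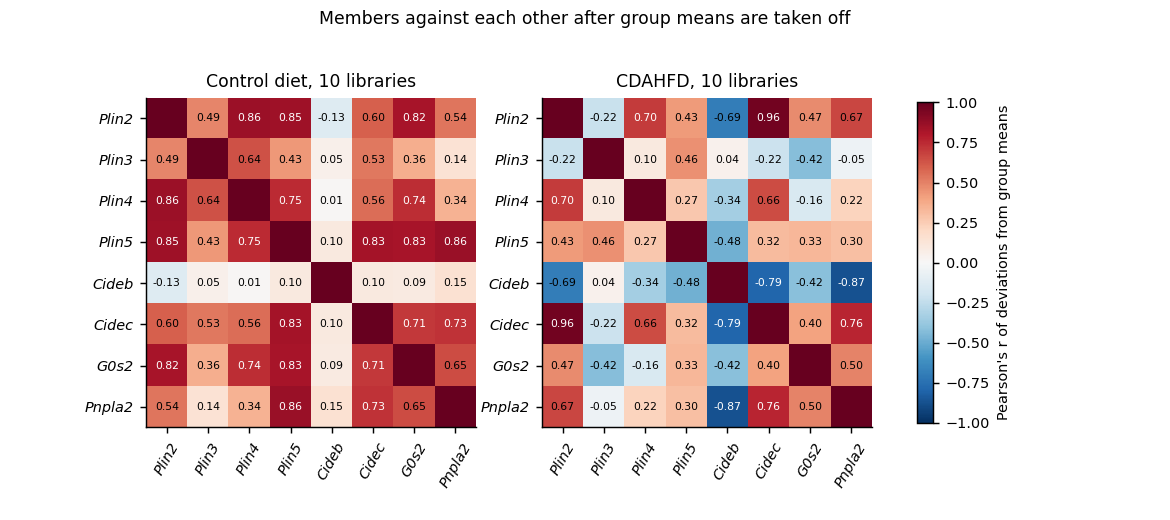
Pearson's r between members over the 10 control diet libraries (left) and the 10 CDAHFD libraries (right), after the mean of each group was taken off log2(FPKM + 0.1). The r of Plin2 with Cidec is 0.60 on the left and 0.96 on the right, and that of Cideb with Pnpla2 is 0.15 and −0.87.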

How the data were processed

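RNA-seq was analysed from 20 mouse livers, 5 per group, grouped by the sample titles. The FPKM values were deposited by the authors for 38924 genes, after QuickRNASeq (the submitters' notes name STAR 2.5.2 and featureCounts of Subread 1.5.1), without scaling between libraries. The notes name the build GRCh38, but coordinates in the table are those of mouse GRCm38. Fragments were worked back from FPKM and the deposited gene length (in bases): the library total was fitted so that values came out whole, within 0.15 of a fragment for 100% of those that could be checked. Duplicate molecules could not be removed, so floors and intervals of counts cover counting error only. Limma 3.58.1 (R 4.3.3; lmFit, contrasts.fit, eBayes with trend) was fitted to log2(FPKM + 0.1) of 14524 genes that passed 0.5 FPKM in 5 or more libraries, all 20 libraries in 1 fit, with two-sided tests. Tables were made with pandas 2.3.3 and numpy 2.4.6 under Python 3.11.15, figures with matplotlib 3.10.9. The script was tested on simulated data. The members, gene lists and tests were chosen with earlier results of these data known. Named genes were all members, the regulators, 8 other droplet genes, 9 chosen by role, Ldah and the closest genes by correlation of group-centred values. The 8 had the lowest FDR in WT among droplet genes found under their listed symbol. Ldah, which the deposited table names 1110057K04Rik, was not in that ranking. The alternatives were pseudocounts of 0.01 and 1, other filters, 2 scalings, fits of only the groups compared, no fold change threshold, a replicate block and each library left out. Proteins were not used here.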

Additional observations from a re-analysis of the deposited data

Results flagged for a closer look

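In HFWT the G0s2 value of library 2 stood apart: it was 88.9 FPKM, while the other 4 libraries lay between 53.1 and 60.5 FPKM, and the gap to the nearest was 0.793 of the whole range (limit 0.71 for 5 libraries). This was 1 of 40 groups of member values examined, and chance flags about 1 in 20. Without this library the log2FC of G0s2 with CDAHFD in WT was −2.83 in place of −2.70.

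For Thbs1, the targeted gene, the effect of the genotype label differed between the diets, with an interaction log2FC of −2.66 (limma FDR 0.0023). No member showed a called interaction.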

How the results depend on the processing

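The 4 members called in WT and the 3 called in TSP-1 null were called under every alternative run on them and with each library left out (4 and 3 members called throughout), apart from the added calls that follow. Median of ratios scaling gave 6 called members in WT (adding Cideb and Pnpla2) and 6 in TSP-1 null (adding Plin2, Cideb and Pnpla2). Quantile normalization gave 4 in TSP-1 null (adding Plin4), as did the fit without a fold change threshold (adding Cideb), and the fit with no filter added Pnpla3 in both genotypes, for 5 and 4. On the control diet the genotype comparison gave 1 called member in place of 0 under median of ratios scaling (Pnpla2), with no filter (Cidea) and without NDKO library 5, so leaving out a library gave 0 to 1. A direction turned for Plin4 with the diet in WT (−0.37 with median of ratios scaling, −0.41 with quantile normalization), for Cidec in TSP-1 null (−0.25 with median of ratios scaling), for Cidea and Pnpla3 in TSP-1 null (−0.27 and −0.14 with quantile normalization), for Pnpla3 between genotypes on the control diet (−0.0016 with a pseudocount of 1) and for G0s2 between genotypes on CDAHFD (0.0095 with median of ratios scaling). None of these had been called as deposited except Pnpla3 in TSP-1 null, and the cause was not tested. Leaving out 1 library turned the sign of small values, whose ranges of log2FC were −0.021 to 0.32 (Plin4), −0.12 to 0.00084 (Cideb), −0.35 to 0.17 (Cidec) and −0.16 to 0.062 (Pnpla2) with the diet in WT, −0.33 to 0.10 (Plin4) and −0.29 to 0.54 (Cidec) with the diet in TSP-1 null, −0.024 to 0.057 (Cideb), −0.25 to 0.63 (Cidec) and −0.11 to 0.16 (Pnpla3) between genotypes on the control diet, −0.28 to 0.019 (Cidea) and −0.19 to 0.040 (G0s2) between genotypes on CDAHFD, and −0.059 to 0.19 (Plin5), −0.25 to 0.64 (Cidec) and −0.26 to 0.0089 (Pnpla2) for the interaction. Of the log2FC values of single members under settings that kept all libraries, 353 kept their direction and side of the threshold, 11 lost a call, 9 gained one and 7 turned, and with 1 library left out 555 kept, 12 lost, 3 gained and 30 turned. Without a fold change threshold the other droplet genes called went from 13 to 23 with the diet in TSP-1 null and from 2 to 9 between genotypes on the control diet, where leaving out NDKO library 3 gave 4. For the interaction they went from 0 to 1 without NDKO library 2 or 3. The share of all genes called without a fold change threshold was not worked out here. At an unadjusted limma p under 0.05, 25 of the 29 other droplet genes passed with the diet in TSP-1 null, beside 73.6% of all genes. Between genotypes on the control diet 16 of the 29 passed, beside 27.3% of all genes.

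The mouse numbers 1 to 5 recur in each group. Over 30 pairs of same-numbered libraries the correlation of deviations from group means ran from −0.13 to 0.08, none above 0.1. So same-numbered mice shared no large shift over all genes. Pairs with different numbers were not compared, and a shared cage or day need not move all genes together. These values therefore do not settle whether the numbers pair the mice. A fit with the replicate number as a block called 4, 3, 0 and 0 members in the 4 comparisons and 0 for the interaction, as without the block, and Pnpla3 in TSP-1 null (FDR 0.0736) and Cidea on the control diet (FDR 0.0606) no longer passed.

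Depth limits Cidea and Pnpla3, which had at most 33 and 32 fragments in a library.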

Other observations

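The spread between mice differed among the members. The SD of Cidec was 48.0%, 52.7%, 37.5% and 31.2% of its mean in NDWT, NDKO, HFWT and HFKO, and that of G0s2 was 31.1%, 70.2%, 23.6% and 25.8%. For Plin3 it was 17.7%, 6.35%, 16.5% and 3.95%, and for Cideb 6.58%, 10.5%, 12.5% and 6.70%. In NDKO the library with the lowest Cidec (5.30 FPKM, library 5) also had the lowest G0s2 (102 FPKM), Plin5 (44.0 FPKM) and Pnpla2 (45.4 FPKM) of that group. These values were not tested.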
